A study of Mus musculus with 6 samples.

Results

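Phase II conjugation enzymes attach glutathione, glucuronic acid or sulfate to a small molecule. The genes described here are the glutathione S-transferases (GST), UDP-glucuronosyltransferases (UGT) and sulfotransferases (SULT), chosen by gene symbol: a symbol that starts with Gst and a letter, or with Ugt or Sult and a digit. They number 45 of the 16978 genes in the table, of which 22 are GST, 16 are UGT and 7 are SULT genes. They were measured by bulk RNAseq in bone marrow derived macrophages (BMDM) of wild type C57BL/6 mice (female and 6 to 8 weeks old where the study bought them), to see what the cytokine IL17B does to macrophages on its own. Femur marrow was grown with 25 ng/ml M-CSF, and on day 7 the cells received 200 ng/ml IL17B or, as the control, PBS for 6 hours. Each treatment has 3 libraries, called PBS 1 to 3 and IL17B 1 to 3 here. No source says whether the 3 came from separate mice or cultures, so the p-values reflect the spread over these libraries alone, and that spread may be technical.

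GST enzymes add glutathione to electrophiles, UGT enzymes of the endoplasmic reticulum add glucuronic acid from UDP-glucuronate, and SULT enzymes of the cytosol add sulfate from the donor PAPS. The conjugates are more water soluble and leave the cell through export pumps. The liver is the best known site of all 3 reactions, and the transcription factor NRF2 induces many GST genes through antioxidant response elements.

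The libraries held 20271450 to 20653371 estimated counts, and the 12 macrophage markers were present in all 6. Libraries IL17B 2 and IL17B 3 stood apart from the others of both treatments by transcripts of the liver. The 20 hepatocyte markers, such as the plasma proteins Alb, Fga and Apoa1, summed to between 1.2 and 1.4 CPM (counts per 1000000 of the normalized library size) in PBS 1 to 3 and to 1.18 CPM in IL17B 1. They summed to 266 CPM in IL17B 2 and 93.0 CPM in IL17B 3, where all 20 had counts, and 14 of the 20 had no count in any PBS library. Nerve markers were also lower in IL17B 2 and 3 (2.10 and 2.29 CPM in sum) than in the other libraries (7.13 to 12.3 CPM). Fibroblast markers summed to 35.4, 47.1 and 32.4 CPM in PBS 1 to 3 and to 27.8, 30.5 and 28.0 CPM in IL17B 1 to 3, without overlap and lowest in IL17B 1. Of 4 tested fibroblast markers 0 passed an adjusted p of 0.05 by edgeR, and 3 had an unadjusted p under 0.05. The part of any of these in the results below was not tested, and in bulk RNA fewer cells of a type and less RNA per cell cannot be told apart.

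IL17B was compared with PBS by edgeR over the 13866 genes with at least 15 counts in all, which include 25 of the 45 enzyme genes (15 GST, 7 UGT and 3 SULT). No enzyme gene passed an adjusted p of 0.05, and neither did any other gene (0% called higher and 0% called lower). At an unadjusted p under 0.05 there were 726 genes (5.24% of all tested) and 3 enzyme genes, Ugt1a6b, Ugt2b5 and Ugt2b36. The last pair had no count outside IL17B 2 and 3 and passed the filter only through them, so their place in that count is no result. DESeq2 called 6 genes and limma-voom 0, none of them an enzyme gene. The median log2 fold change was -0.0009 over the 25 enzyme genes and 0.0003 over all genes tested. The fitted value was above 0 for 11 enzyme genes and below 0 for 14, beside 50.1% above 0 over all genes. Both the median and the 11 include Ugt2b5 and Ugt2b36, whose sign was fixed by the way they passed the filter. In 1 of the 25, Ugt1a6b, the 3 IL17B libraries did not overlap the 3 PBS libraries, beside 9.92% of all genes tested.

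The macrophages held a narrow set of these enzymes. By TPM, a level per transcript length, Gstm1 came first with 481 ± 20.5 TPM (SD over the 6 libraries), then Gsto1 with 172 ± 11.5, Ugt1a7c with 123 ± 3.82 and Gstp1 with 82.1 ± 7.58 TPM. These 4 do not overlap in any library, so their order held in each. Then came Gstk1 (22.3 ± 1.75 TPM), Gstz1 (19.9 ± 1.09) and Gstm5 (18.6 ± 1.63), whose ranges overlapped. Within each library Gstk1 was above the other pair, and the order of Gstz1 and Gstm5 varied. Gstt3 and Gstm4, both at 14.5 TPM, could not be ordered, nor could Sult1a1, Gstt2 and Gsta3 between 8.24 and 10.1 TPM. At the other end, 20 genes had under 15 counts in all.

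**Figure D1:**
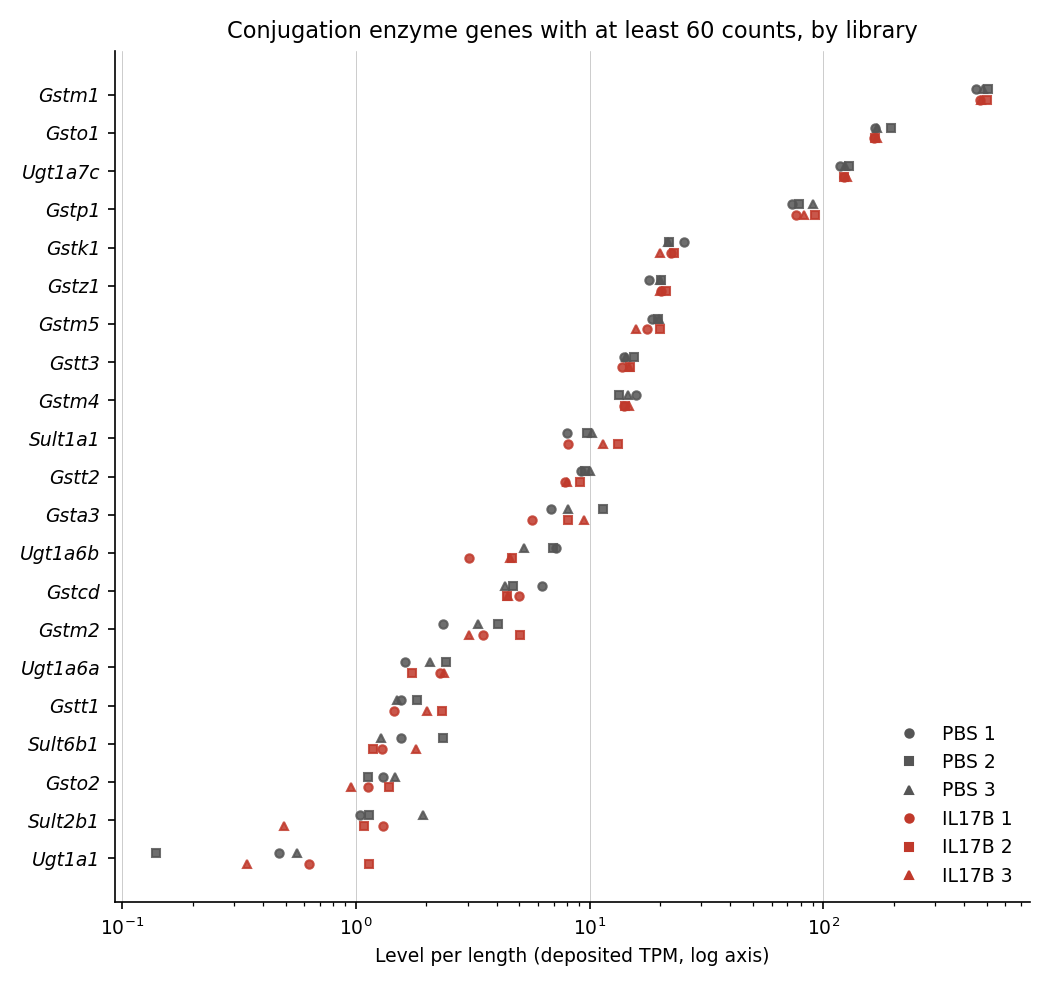
Level per length (deposited TPM, log axis) of the 21 enzyme genes with at least 60 counts, one point a library, grey for PBS and red for IL17B. Gstm1, Gsto1, Ugt1a7c and Gstp1 lie above all others, and in all but Gstt2 and Ugt1a6b the grey and red points overlap.

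The summed GST level was 483, 522 and 504 CPM in PBS 1 to 3 and 473, 526 and 488 CPM in IL17B 1 to 3. The groups overlapped, with means of 503 ± 19.2 and 496 ± 27.2 CPM (SD, n = 3 each; log2 ratio -0.02). Gstm1, the main mu-class enzyme, made up 55.7 to 57.0% of the GST sum in TPM, Gsto1 18.8 to 21.5% and Gstp1 8.70 to 10.5%. These shares moved little between libraries, whatever the treatment.

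Gstm1 itself was at 282.5, 307 and 298 CPM in PBS 1 to 3 and 284, 315 and 289.8 CPM in IL17B 1 to 3. Library IL17B 2 was the highest and PBS 1 the lowest, and the fitted log2 fold change was 0.00 (standard error 0.05, edgeR adjusted p = 1.00). The gene lies with the other mu-class genes on chromosome 3 (108012250 to 108017973, GRCm38.p6). Of the mu-class genes, Gstm5 gave a log2 fold change of -0.12 (standard error 0.11), Gstm4 -0.06 (standard error 0.10), Gstm2 0.26 (standard error 0.28) and Gstm7 0.15 (standard error 0.40), while Gstm3 and Gstm6 had 5 and 3 counts in all.

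Gsto1, an omega-class enzyme that reduces dehydroascorbate and mixed disulfides, was at 94.4, 107 and 94.8 CPM in PBS 1 to 3 and 90.4, 94.9 and 94.0 CPM in IL17B 1 to 3. PBS 2 stood above the other 5 libraries, which lay close together (log2 fold change -0.09, standard error 0.06, edgeR adjusted p = 0.976). Gstp1, the pi-class enzyme, was at 25.8, 26.9 and 31.4 CPM in PBS 1 to 3 and 25.9, 32.5 and 28.4 CPM in IL17B 1 to 3, with full overlap (log2 fold change 0.05, standard error 0.10). Of its 50-base windows 51.0% also occur in Gstp2, so that short reads from the pair can be exchanged. Gstp2 was assigned 3 counts, all in IL17B 3.

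The remaining GST classes were lower. Gstt2, a theta-class enzyme, had 127, 131 and 134 counts in PBS 1 to 3 and 104, 127 and 108 in IL17B 1 to 3. The IL17B values were equal to or below the lowest PBS count, and in CPM PBS 1 and IL17B 2 overlapped (log2 fold change -0.20, standard error 0.11, edgeR adjusted p = 0.960). In TPM its treatments did not overlap, with 9.20 to 10.0 TPM after PBS and 7.82 to 9.08 TPM after IL17B. Gstt3 gave little difference (log2 fold change -0.01, standard error 0.08), and Gstt1 had 16, 19 and 15 counts in PBS 1 to 3 and 16, 24 and 21 in IL17B 1 to 3. Its IL17B 1 value lay within the PBS range (log2 fold change 0.29, standard error 0.30, and -0.05 without IL17B 2 and 3). Gstz1, which also acts in tyrosine breakdown as maleylacetoacetate isomerase, gave 0.09 (standard error 0.08) and the kappa-class Gstk1 gave -0.08 (standard error 0.10). Gsta3, the alpha-class gene with the most counts, varied most among the GST genes with a mean of at least 5 CPM, from 74 counts in IL17B 1 to 153 in PBS 2. Gstcd, named for a GST-like C-terminal domain, and Gsto2 gave -0.12 (standard error 0.15) and -0.15 (standard error 0.32). Of the GST genes under the filter, Gsta4 had 1 to 3 counts in each library, Gstp3 had 2 in PBS 1 and 2 in IL17B 3, and Gsta2 and Gstt4 had 1 each, in IL17B 3. Of the 50-base windows of Gstz1 17.2% also occur in Pomt2, and its deposited counts were not whole in any of the 6 libraries.

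**Figure D2:**
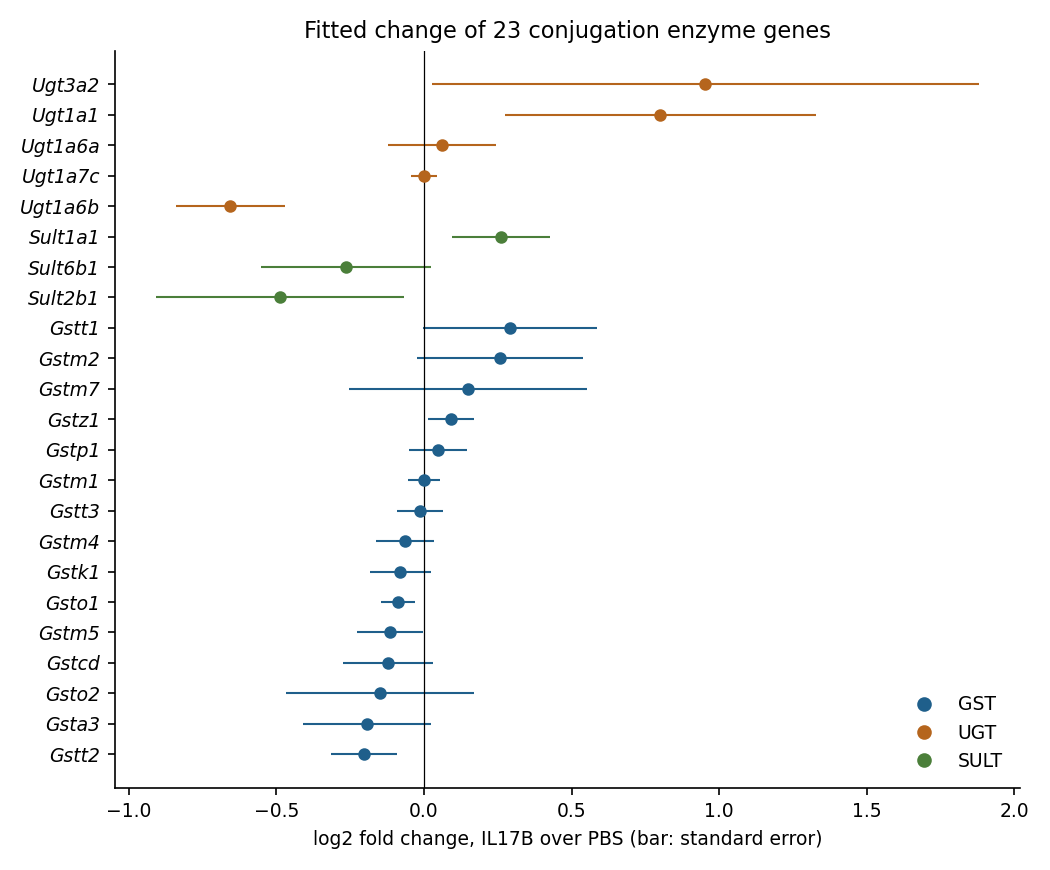
Log2 fold change (IL17B over PBS) with its standard error from edgeR for 23 of the 25 tested enzyme genes, coloured by family. Ugt2b5 and Ugt2b36 are left out because their PBS libraries hold no count. None passed an adjusted p of 0.05, and Ugt1a6b, at -0.66, lies farthest below 0.

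The UGT sum was 202, 214 and 208 CPM in PBS 1 to 3 and 199, 212 and 211 CPM in IL17B 1 to 3, with means of 208 ± 5.82 and 207 ± 6.98 CPM (log2 ratio -0.00). Nearly all of it was one gene. Ugt1a7c was at 190, 202 and 198 CPM in PBS 1 to 3 and 191, 199 and 199.8 CPM in IL17B 1 to 3, and made up 92.1 to 95.3% of the UGT sum in TPM. Its spread over the 6 libraries was 2.41% of its mean, the tightest of the leading enzymes, and its log2 fold change was -0.00 (standard error 0.04, edgeR adjusted p = 1.00).

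The 7 UGT1A genes of the table share 1 locus on chromosome 1 (88070779 to 88220002, GRCm38.p6). Each has a first exon of its own, which codes for the part of the enzyme that binds the substrate, and all are spliced to the same exon 2 at position 88215044. The sequences at that junction are shown because a read across it can name the gene only by its first-exon bases. The last 25 bases of each first exon are in capitals and the first 25 bases of the shared exon 2 in lower case, from the GENCODE M21 transcripts of GRCm38.
Ugt1a9: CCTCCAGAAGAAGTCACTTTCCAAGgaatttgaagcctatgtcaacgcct
Ugt1a7c: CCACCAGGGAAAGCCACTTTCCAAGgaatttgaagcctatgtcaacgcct
Ugt1a6b: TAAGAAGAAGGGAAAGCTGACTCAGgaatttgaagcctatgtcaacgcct
Ugt1a6a: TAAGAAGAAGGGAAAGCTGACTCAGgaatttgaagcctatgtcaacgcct
Ugt1a2: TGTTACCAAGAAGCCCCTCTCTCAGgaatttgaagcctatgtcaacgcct
Ugt1a1: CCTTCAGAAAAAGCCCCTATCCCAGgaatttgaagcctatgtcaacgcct
Ugt1a5 has the same junction as Ugt1a2. Ugt1a8 and Ugt1a10, which are not among the genes of the table, are spliced to the same exon 2. The last 25 bases of their first exons differ from those of Ugt1a7c at 1 and 3 bases, respectively. The lower case parts are identical, and against Ugt1a7c the capitals differ at 5 bases in Ugt1a9, at 7 in Ugt1a1, at 14 in Ugt1a2 and at 17 in both Ugt1a6a and Ugt1a6b. The last pair cannot be told apart at the junction, and 48.3% of the 50-base windows of the Ugt1a6b first exon also occur in that of Ugt1a6a. From 57.9 to 71.7% of each transcript lies after exon 1, which is not the same as the share found in other genes. Of all 50-base windows, 53.8% of those of Ugt1a7c, 79.8% of Ugt1a6b and 96.0% of Ugt1a6a also occur in another enzyme gene. These shares are of GENCODE M21 transcripts, and they may differ in the gene set behind the deposited counts, which is not known. Reads from shared sequence can be divided between genes only by estimate, and the counts of single UGT1A genes are uncertain.

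Ugt1a6b was at 8.02, 7.57 and 5.83 CPM in PBS 1 to 3 and 3.29, 5.28 and 5.02 CPM in IL17B 1 to 3. Its products glucuronidate small phenols. All IL17B libraries lay below all PBS libraries, with means of 7.14 ± 1.16 and 4.53 ± 1.08 CPM (log2 fold change -0.66, standard error 0.18, edgeR adjusted p = 0.862). Its near copy Ugt1a6a was at 2.62, 3.83 and 3.33 CPM in PBS 1 to 3 and 3.58, 2.83 and 3.80 CPM in IL17B 1 to 3, where the groups overlapped (log2 fold change 0.06, standard error 0.18). Summed over the pair, the level was 10.6, 11.4 and 9.15 CPM in PBS 1 to 3 and 6.87, 8.11 and 8.82 CPM in IL17B 1 to 3, again without overlap. The fit on the merged pair gave a log2 fold change of -0.39 with a standard error of 0.12 (edgeR adjusted p = 0.862). All UGT1A rows merged gave -0.01 (standard error 0.05, edgeR adjusted p = 0.995). The lowest Ugt1a6b value was in IL17B 1, the library with the hepatocyte markers at the PBS level and the lowest fibroblast marker sum. Without IL17B 1 the fitted value was -0.47, and with IL17B 1 as the lone IL17B library it was -1.12.

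**Figure D3:**
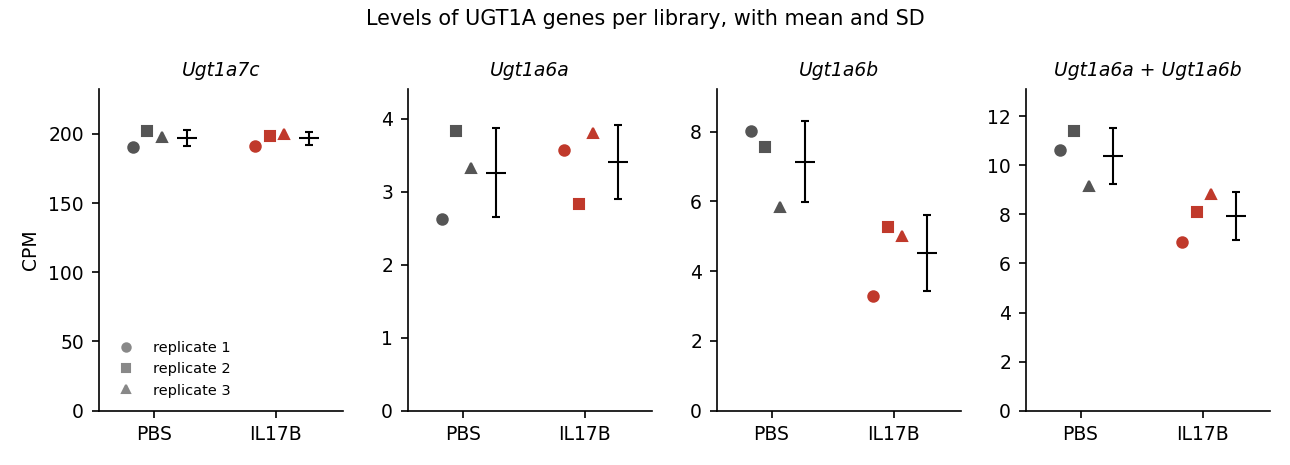
CPM of Ugt1a7c, Ugt1a6a, Ugt1a6b and the sum of the last pair in each library, with the mean and SD of each treatment (n = 3). For Ugt1a6b all IL17B libraries (3.29 to 5.28 CPM) lie below all PBS libraries (5.83 to 8.02 CPM), while for Ugt1a7c the treatments overlap.

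Ugt1a1, the enzyme that conjugates bilirubin, had 16, 5 and 18 counts in PBS 1 to 3 and 20, 37 and 11 in IL17B 1 to 3. Library IL17B 2 was the highest, and the rest overlapped (log2 fold change 0.80, standard error 0.53, edgeR adjusted p = 0.976). Without IL17B 2 the value was 0.26.

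The other UGT genes had at most 4 counts in any library outside IL17B 2 and 3. The 7 UGT2 genes, a family best known in liver for steroid and bile acid conjugation, summed to 1, 0 and 0 counts in PBS 1 to 3 and 1, 51 and 21 in IL17B 1 to 3. Ugt2b5 had no count in the PBS libraries or in IL17B 1, and 14 and 5 counts in IL17B 2 and 3. A count of 0 in all PBS libraries allows up to 3 counts over them together. Relative to that floor its observed level was 14.0-fold higher in IL17B 2 and 5.01-fold higher in IL17B 3 (edgeR adjusted p = 0.909). The floor allows for counting error in the PBS libraries alone, so a fold over it is not a lower limit. Ugt2b36 had 10 and 5 counts, 10.0-fold and 5.01-fold relative to the same floor (edgeR adjusted p = 0.912), and was also at 0 in the other 4 libraries.

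Of the UGT2 genes under the filter, Ugt2b1 (9 and 5 counts in IL17B 2 and 3) and Ugt2b34 (7 and 4) showed the same placement of counts, and Ugt2a3 had 8 counts in IL17B 2 alone. Ugt2b38 had 1 count, in IL17B 3, and 34.2% of its windows also occur in Ugt2b5. Ugt2b35 had 1, 0 and 0 counts in PBS 1 to 3 and 1, 3 and 1 in IL17B 1 to 3. The 7 genes and Sult1d1 lie together on chromosome 5 (86889770 to 87569006, GRCm38.p6). In IL17B 1, the one treated library with these markers at the PBS level, the UGT2 genes had 1 count, as in PBS 1.

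Among the enzyme genes the same placement was found in UGT genes and in Sult1d1, and in no GST gene were counts confined to both IL17B 2 and 3. It was not particular to them. In the related lists below, Glyat (3 and 1 counts in IL17B 2 and 3), Nr1i2 (4 and 1) and Ppara (13 and 1) also had no count elsewhere. No count in any PBS library and a count in at least 1 IL17B library was found for 13 of the 45 enzyme genes (28.9%) and for 797 of all 16978 genes (4.69%). No enzyme gene showed the opposite, against 622 of all genes (3.66%). Counts in both IL17B 2 and IL17B 3 and in none of the other 4 libraries were found for 6 enzyme genes (13.3%: Ugt1a9, Ugt2b1, Ugt2b34, Ugt2b36, Ugt2b5 and Sult1d1) and for 186 of all genes (1.10%). These shares are not matched for level, and genes of few counts show such zeros most easily. At least 15 counts in all were held by 25 of the 45 enzyme genes and by 13866 of all 16978 genes. Of the 13 enzyme genes, Gsta2, Gstt4, Sult5a1 and Ugt2b38 had 1 count each. Enzyme genes with a count numbered 29, 26 and 28 in the PBS libraries and 26, 39 and 40 in the IL17B libraries, while genes of the whole table with a count numbered 15040 to 15213. IL17B 1 was thus within the range of the PBS libraries. Ugt1a9 had 2 and 4 counts in IL17B 2 and 3, and Gstm6 had its 3 counts in IL17B 2. Ugt1a2 had 2 counts in PBS 2 and 9 in IL17B 2, and Ugt1a5 had 4 in PBS 1, 2 in PBS 3 and 2 in IL17B 3. Ugt3a1 had 1 count each in PBS 1, IL17B 2 and IL17B 3. Ugt3a2, of the UGT3 group, had 2, 0 and 3 counts in PBS 1 to 3 and 1, 6 and 3 in IL17B 1 to 3 (log2 fold change 0.95, standard error 0.93).

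**Figure D4:**
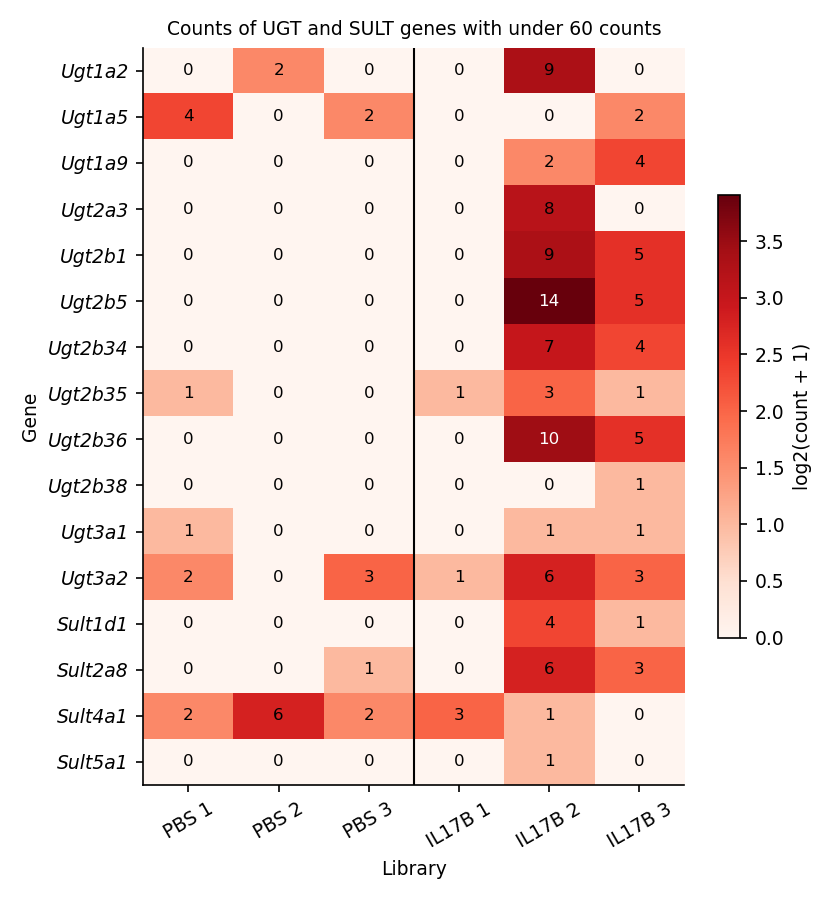
Counts in each library (numbers; colour is log2 of the count plus 1) of the 16 UGT and SULT genes with under 60 counts in all. Most of the UGT2 genes, Ugt1a9 and Sult1d1 have counts in IL17B 2 or 3 and none in the PBS libraries or IL17B 1.

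The SULT sum was 7.78, 9.75 and 9.74 CPM in PBS 1 to 3 and 8.29, 11.9 and 9.75 CPM in IL17B 1 to 3 (means 9.09 ± 1.14 and 9.98 ± 1.83 CPM, log2 ratio 0.14). Without IL17B 2 and 3 the log2 ratio was -0.13. Sult1a1, the phenol sulfotransferase, supplied 72.2 to 82.1% of the SULT sum in TPM. It was at 5.49, 6.55 and 7.25 CPM in PBS 1 to 3 and 6.13, 9.53 and 7.46 CPM in IL17B 1 to 3, so that IL17B 2 and 3 were the 2 highest libraries and IL17B 1 lay within the PBS range (log2 fold change 0.26, standard error 0.17, edgeR adjusted p = 0.976). Sult2b1, which sulfates cholesterol and other hydroxysteroids, had 13, 13 and 22 counts in PBS 1 to 3 and 15, 13 and 6 in IL17B 1 to 3, with IL17B 3 lowest and PBS 3 highest (log2 fold change -0.49, standard error 0.42). Its value was -0.18 without IL17B 3, -0.19 without PBS 3 and -0.74 without IL17B 1. Sult6b1 gave -0.26 (standard error 0.29).

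The 4 other SULT genes were under the filter. Sult2a8, a bile acid sulfotransferase of mouse liver, had 0, 0 and 1 counts in PBS 1 to 3 and 0, 6 and 3 in IL17B 1 to 3, and Sult1d1 had 4 and 1 counts in IL17B 2 and 3 and none elsewhere. Sult4a1, known from brain, had 2, 6 and 2 counts in PBS 1 to 3 and 3, 1 and 0 in IL17B 1 to 3. Sult5a1 had 1 count, in IL17B 2. At these counts no difference between treatments was detectable.

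Promoter windows of RefSeq (250 bases before to 50 after the gene start, GRCm38.p6) were at hand for 40 of the 45 enzyme genes. The core letters of the antioxidant response element, TGACNNNGC on either strand, were found in 3 of the 40 (7.50%: Gsta3, Gstm5 and Gstm7) and in 3781 of 27025 windows of all genes (14.0%). The letters GTTAAT and ATTNAC with any 1 base between them, after the site of the liver factor HNF1, were searched on either strand once the counts were known. They were in 2 of the 40 windows, those of Ugt1a9 and Sult1d1, and in 19 of 27025 windows of all genes (0.0703%). Both genes had counts in IL17B 2 and 3 and in no other library. Ugt2b1, Ugt2b34, Ugt2b36 and Ugt2b5 had the same placement of counts and were not among the matches. As the search followed the counts, these shares cannot test a link between the letters and the counts, and none was tested. The matches are shown in capitals, 5′ to 3′ along the gene.
Ugt1a9: tcttttaaGTAAATCATTAACctgaattt
Sult1d1: actgatcaGTTAATAATTGACtaagagta
The first lies at chr1:88070673-88070701 on the plus strand, with the letters on the opposite strand, and the second at chr5:87569065-87569093 on the minus strand. A match is a description of the letters and not a bound site.

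The genes that supply and follow the conjugation reactions gave no call in either direction. In the glutathione supply list 0 of 14 tested genes passed (median log2 fold change -0.03). Its most counted gene, Slc3a2, a subunit of the cystine carrier, was at 428 ± 31.8 CPM after PBS and 394 ± 25.7 CPM after IL17B, and Gclm, a subunit of the rate-limiting enzyme of glutathione synthesis, at 118 ± 7.79 and 115 ± 4.71 CPM. In the UDP-glucuronate supply list 0 of 7 passed (median -0.02). Ugdh, which makes UDP-glucuronate, was at 77.9 ± 2.90 and 76.6 ± 2.45 CPM. In the list of PAPS supply and sulfatases 0 of 9 passed (median 0.03), with the PAPS synthase Papss1 at 46.9 ± 1.14 and 47.3 ± 1.44 CPM.

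Among the 7 conjugate transporters 0 passed (median 0.04), and Abcc3 and Abcc1, which export conjugates, were the most counted at 266 ± 7.67 and 213 ± 9.84 CPM after PBS and 273 ± 5.56 and 214 ± 12.3 CPM after IL17B. Among 11 tested regulators 0 passed (median 0.06), and Nfe2l2, which encodes NRF2, was at 545 ± 10.9 and 541 ± 9.16 CPM. The IL17B libraries all lay above the PBS libraries for 3 regulators (Bach1, Mafk and Arnt) and for 1 transporter (Slco2b1). They all lay below for 1 regulator (Maff), beside 5.16% above and 4.77% below over all genes tested. In a list of other phase II and related enzymes, which also holds Ptges and Mif, 0 of 15 tested genes passed (median 0.03). The most counted gene of that list, the prostaglandin D synthase Hpgds, was at 160 ± 12.6 CPM after PBS and 157 ± 1.2 CPM after IL17B. By its symbol it is not part of the GST sum. Of the 15 tested genes of that list, the IL17B libraries all lay above the PBS libraries for 4 (Mgst2, Tpmt, Hnmt and Nat2) and below for 1 (Comtd1), beside 5.16% and 4.77% of all genes tested. Under the filter, Nnmt had 0, 1 and 0 counts in PBS 1 to 3 and 2, 5 and 2 in IL17B 1 to 3, also without overlap.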

How the data were processed

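The members and gene lists were chosen with earlier results of these data known. The authors filtered reads with SOAPnuke, aligned them to the genome GRCm38.p6 with HISAT2 2.0.4 and to its genes with Bowtie2 2.2.5, and deposited estimated counts by RSEM 1.2.12 (which divides reads shared by several genes), with FPKM and TPM values. The deposited TPM values are levels per length, and the deposited FPKM values and the authors' averages of each treatment were not used.

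Estimated counts were rounded. Genes with at least 15 counts in all were compared by edgeR 4.0.16 (R 4.3.3), quasi-likelihood test, TMM, Benjamini-Hochberg over 13866 genes, no block. CPM are counts per 1000000 of the TMM library size. An exact permutation test of 3 against 3 cannot go below p = 0.1. Alternatives were other normalizations, DESeq2 1.42.0, limma 3.58.1, other filters, TPM, the replicate number as a block, merged UGT1A rows, and libraries left out. The rule named members by level (mean of at least 5 CPM), smallest p, highest count, presence in the study's list of changed genes, and few control counts. Other members are named because the families are described in full. The edgeR fit was tested on simulated counts with a common dispersion and changes set in all 3 IL17B libraries. The other steps were not tested in that way. Sequences come from GENCODE M21 and RefSeq, and 45 of 45 members matched. Shared sequence was counted as 50-base windows of GENCODE M21 coding transcripts, and the gene set the authors aligned to may differ.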

Additional observations from a re-analysis of the deposited data

How the results depend on the processing

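No enzyme gene was called under any alternative. Over the whole table the calls were 6 with DESeq2 and 0 to 86 when 1 library was left out (86 without IL17B 1), and 0 otherwise except under the block. With the replicate number as a block they were 76, of which 74 were higher. The same-numbered PBS and IL17B libraries did not deviate together (r = -0.09, 0.01 and -0.16 over 9842 genes). Such an r rests on 3 libraries a treatment and cannot show whether same-numbered samples share a mouse or culture. Genes whose treatments did not overlap numbered 2 of the 45 (4.44%, beside 9.11% of the 16978 genes of the table; Ugt1a6b, and Ugt2b35 at 1, 0 and 0 against 1, 3 and 1 counts; in TPM, Ugt1a6b and Gstt2), 3 to 13 with a library left out (beside 17.2 to 20.4% of all genes; 13, or 28.9%, without IL17B 1, beside 18.0%, and 5, or 11.1%, without PBS 2 or IL17B 2), and 8 (17.8%, beside 46.6%) without IL17B 2 and 3, which was tried once the data had been seen. Of the 13 without IL17B 1, 11 were higher after IL17B. Genes with counts in IL17B 2 and 3 alone enter these 13 by construction, so the share is no result. Without IL17B 2 and 3 the log2 ratio of the summed UGT level was -0.0618 and of SULT -0.134. In that setting the log2 fold changes were -0.113 for Gstp1, -0.0499 for Gstt1 and -0.0702 for Sult1a1. The edgeR adjusted p of Ugt2b5 was 0.211 without IL17B 1 and 0.278 with the block. This gene passed the filter only through IL17B 2 and 3, so these values are no result. Values near 0 changed sign. Gstm1 gave 0.0017 with DESeq2 size factors, 0.0009 with library totals, 0.0016 with DESeq2 and 0.0033 on TPM, and Ugt1a7c gave 0.0010, 0.0006, 0.0010 and 0.0037. With 1 library left out the fold changes were Gsta3 -0.351 to 0.0178, Gstcd -0.221 to 0.0741, Gstk1 -0.138 to 0.0113, Gstm1 -0.0460 to 0.0308, Gstm4 -0.150 to 0.0081, Gstp1 -0.0438 to 0.137, Gstt3 -0.0533 to 0.0318, Sult6b1 -0.474 to 0.0018, Ugt1a6a -0.0708 to 0.193, Ugt1a7c -0.0221 to 0.0195. The cause was not tested. Depth limits the genes under the filter, where 1 count decides a level.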
